A study of Homo sapiens with 4 samples.

Results

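The genes described here encode the proteins of the mitochondrial ribosome. They were chosen by symbol alone, as every listed feature whose name is MRPL or MRPS followed by a number and, in the MRPS18 family, a letter. This gave 78 of the 36601 genes listed for each library. BEAS-2B, a human bronchial epithelial cell line made immortal, was irradiated with Cs-137 gamma rays at 10 mGy or 100 mGy (the low-dose group) or at 1 Gy (the high-dose group), and an unirradiated culture served as the control. All 4 groups are the same line, with no other treatment or allele named in the labels. Irradiated cells were processed after 30 min of culture, and no such time is stated for the control. Polyadenylated RNA was captured in droplets and counted from its 3′ end, each cell receiving a barcode and each captured molecule a unique molecular identifier (UMI). The study asks how the response of a cell population depends on dose, and here that question is put to the mitochondrial ribosome.

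The mitochondrial ribosome translates the 13 mRNAs of the mitochondrial genome, all of which encode subunits of the respiratory chain or of the ATP synthase. Its RNAs are made inside the mitochondrion, whereas all of its proteins are encoded in the nucleus, translated in the cytosol and imported. Its proteins are partly kept from the bacterial ancestor and partly gained in mitochondria, and its assembly and work need further nuclear-encoded factors, which are described here beside it.

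The libraries held between 211752280 and 285806026 UMIs on between 11111 and 21514 barcodes, with a median of 19771 UMIs per barcode in the control, 13757 after 10 mGy, 12417 after 100 mGy and 14277 at 1 Gy. There is 1 library at each dose, so dose and library cannot be told apart, no test between doses is possible, and the 95% intervals given are exact and cover counting error only. UMIs were summed over all deposited barcodes and given as counts per 1000000 UMIs of the library (CPM). Of the barcodes, 41.4% after 10 mGy, 27.4% after 100 mGy, 25.4% at 1 Gy and 19.6% in the control were low-UMI barcodes, whose UMI count was under the library median even after multiplication by 3. Pairs of libraries shared 76 to 134 barcode sequences, at most 0.864% of the smaller library. The epithelial keratins KRT7, KRT8 and KRT18 lay between 219 and 645 CPM, while the epithelial markers EPCAM (0.902 to 1.17 CPM) and CDH1 (0.0205 to 0.0490 CPM) were nearly absent, and KRT19 lay between 1.72 and 2.41 CPM. Markers of blood, endothelial, hepatic, secretory, ciliated and alveolar cells (PTPRC, HBB, PECAM1, ALB, MUC5AC, FOXJ1, SFTPC) were at or below 0.0803 CPM. The fibroblast collagen COL1A1 lay between 20.5 and 25.6 CPM. The mesenchymal markers VIM, FN1, CDH2 and ZEB1 together took 0.447% of UMIs in the control, 0.331% after 10 mGy, 0.316% after 100 mGy and 0.404% at 1 Gy. Of these 4, 3 were over 1.2-fold lower at each low dose. So were 53.0% (10 mGy) and 58.9% (100 mGy) of all genes with a mean of at least 10 CPM. Against the median of those genes, 1 of the 4 lay higher at 10 mGy and 2 at 100 mGy. Among KRT7, KRT8 and KRT18, KRT7 was over 1.2-fold lower at 10 mGy (0.777). KRT18 was over 1.2-fold higher at 100 mGy (1.30), and their other low-dose ratios did not pass. The part of these marker differences in the results below was not tested.

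The mitochondrial ribosomal protein genes took a larger share of the mRNA in the low-dose group than in the control or at 1 Gy. They held 0.740% of all UMIs in the control (interval 0.739% to 0.741%), 0.972% after 10 mGy (0.971% to 0.973%), 1.01% after 100 mGy (1.006% to 1.008%) and 0.719% after 1 Gy (0.717% to 0.720%). The low doses thus stood apart from both other libraries, with a summed level 1.31 times the control after 10 mGy, 1.36 times after 100 mGy and 0.971 times at 1 Gy. The direction belongs to the share of the RNA: counted as unscaled UMIs per barcode, where the libraries differ in depth, the median gene of the family lay under the control after either low dose (log2 ratios of -0.14 and -0.28) and further under it at 1 Gy (-0.53). Without the low-UMI barcodes the same unscaled medians were 0.25 after 10 mGy, -0.14 after 100 mGy and -0.43 after 1 Gy. The direction at 10 mGy thus turned again with the barcodes used. On unscaled UMIs of all barcodes a gene lies below the control when its CPM ratio is under 1.44 at 10 mGy, under 1.56 at 100 mGy or under 1.403 at 1 Gy, and this holds for every ratio given here. Under median ratio scaling, which sets the median gene to no change, a gene lies above the control when its CPM ratio is over about 0.810 at 10 mGy or 0.766 at 100 mGy.

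**Figure D1:**
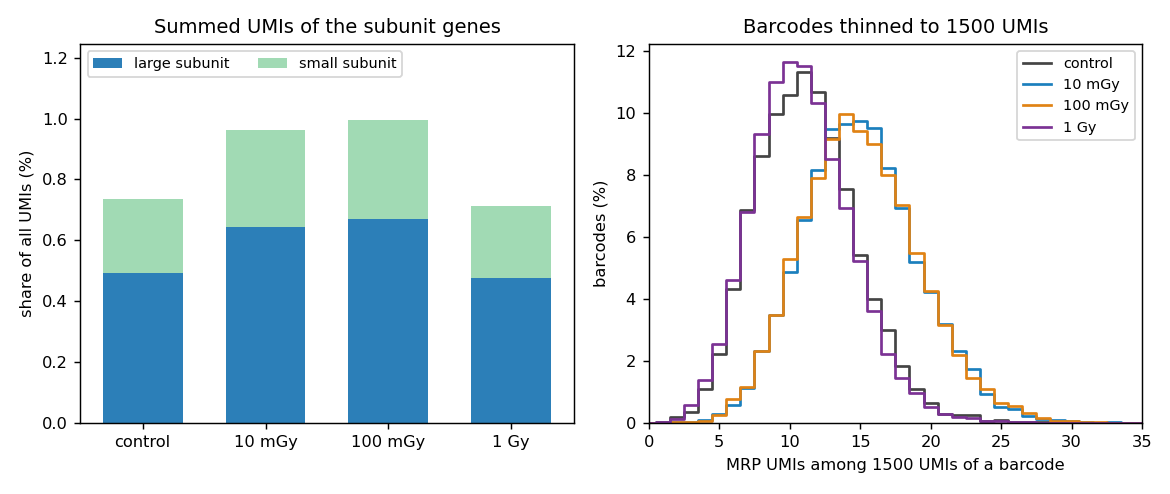
Left: share of all UMIs (%, from 0) of the 51 large subunit and 26 small subunit genes in each library, stacked; MRPS36 is left out. Right: distribution of the UMIs of all 78 genes among 1500 UMIs drawn from each barcode, as the percentage of barcodes, 1 line per library. Both subunits had larger shares at 10 mGy and 100 mGy, and the 2 low-dose distributions lay to the right of those of the control and 1 Gy over the whole range, with means of 15.0 against 11.2 and 10.9 UMIs.

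Of the 78 genes, 76 had a mean of at least 10 CPM over the 4 libraries, the level set for ratios, as did 8507 of all genes. The remaining genes were MRPL53 and MRPS30, both of the large subunit. MRPL53 had 2.87 CPM in the control, 4.67 after 10 mGy, 6.12 after 100 mGy and 2.76 at 1 Gy. It was thus higher in both low-dose libraries, with ratios to the control of 1.63 (1.48 to 1.79) and 2.13 (1.94 to 2.35). MRPS30, a large subunit protein in spite of its name, had 6.93, 7.30, 6.84 and 6.13 CPM in the same order of doses, and the intervals of its ratios at the low doses included 1.

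At 10 mGy, 51 of the 76 genes were over 1.2-fold higher than in the control, the fold limit used in the study, and 4 were over 1.2-fold lower. Among all genes of this level, 15.4% were that much higher and 53.0% that much lower. At 100 mGy, 50 were higher and 2 lower, against 14.0% and 58.9% of all genes. At 1 Gy, 0 were higher and 1 lower (1.28% and 0.846% of all genes). The median log2 ratio of the 76 genes was 0.39 after 10 mGy, 0.37 after 100 mGy and -0.04 at 1 Gy, and the median of all genes was -0.30, -0.38 and 0.02. The difference between these medians was 0.69 after 10 mGy, 0.75 after 100 mGy and -0.06 at 1 Gy. A change of library totals, unscaled UMIs included, multiplies a whole library by 1 factor. It cannot change this difference and is no check of it. With each barcode scaled to 10000 UMIs the difference was 0.73, 0.76 and -0.013. Measured against the median gene, 74 of the 76 lay higher at 10 mGy, with MRPS9 and MRPS35 as the exceptions, 76 lay higher at 100 mGy and 23 at 1 Gy.

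Individual genes were spread around these medians. Log2 ratios ran from -0.38 to 0.93 at 10 mGy, from -0.27 to 0.97 at 100 mGy and from -0.28 to 0.21 at 1 Gy. The counting interval of the ratio lay above 1 for 62 genes at 10 mGy and below 1 for 13, against 25.8% and 69.2% of all genes, and for 64 and 7 at 100 mGy, against 23.1% and 72.6%. At 1 Gy it lay above 1 for 20 and below 1 for 40, against 40.1% and 30.2% of all genes, which shows how small a difference these counts can resolve and says nothing of the spread between cultures. In 61 of the 76 genes both low-dose values exceeded both the control and 1 Gy, which held for 20.7% of all genes. In 8 genes both lay below (67.6% of all genes). These 8 were MRPL1, MRPL9, MRPL19, MRPL30, MRPL49, MRPS5, MRPS9 and MRPS27. With unscaled UMIs per barcode, 12 genes were highest at both low doses in place of 61 (3.59% of all genes counted so), and 26 when low-UMI barcodes were also left out (7.01%).

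**Figure D2:**
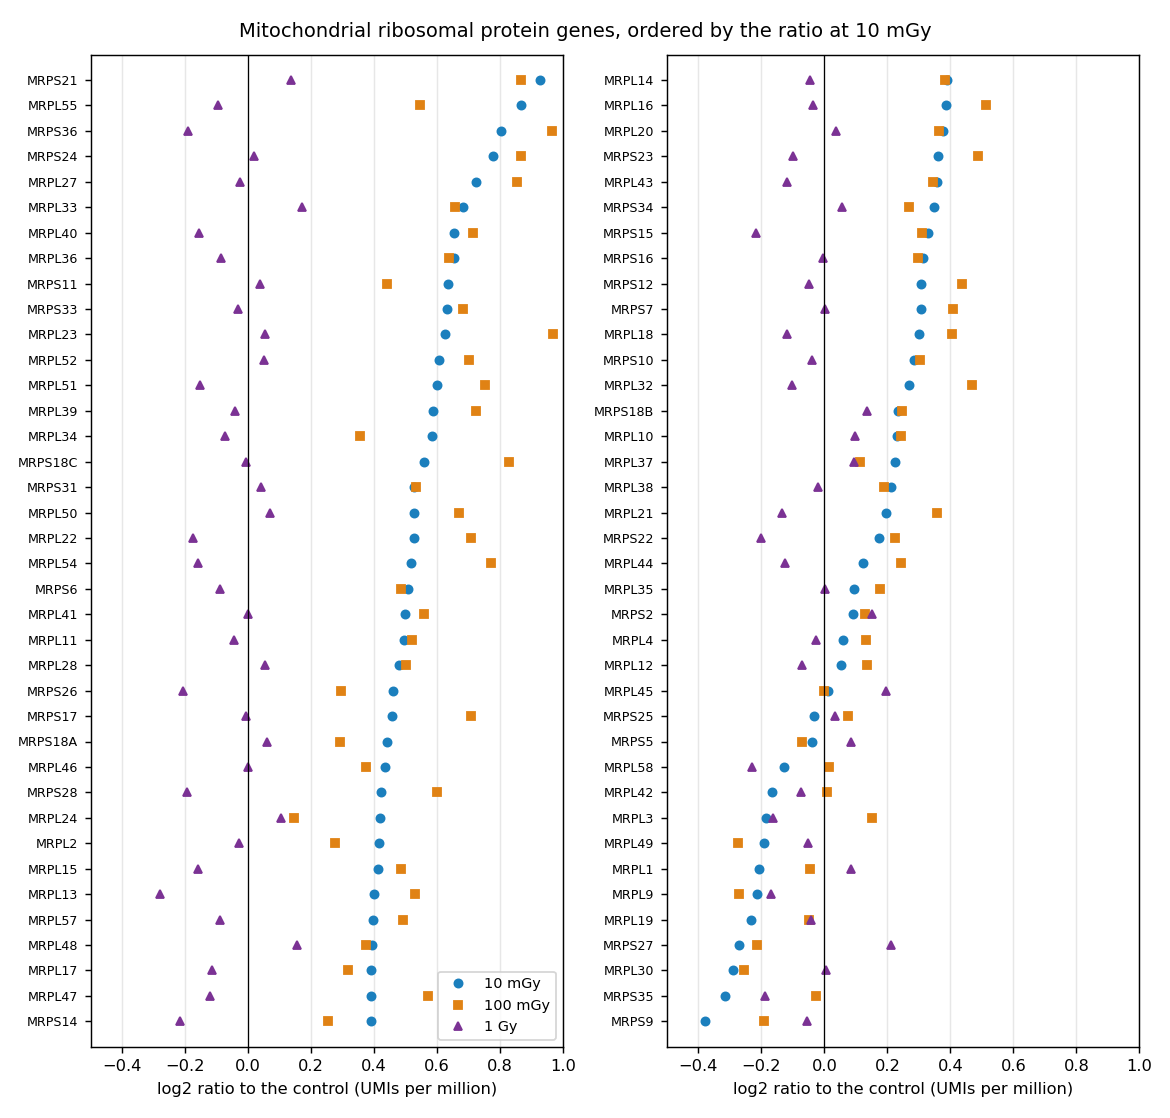
Log2 ratio to the control (on CPM) of the 76 genes of at least 10 CPM at 10 mGy (circles), 100 mGy (squares) and 1 Gy (triangles), 1 row per gene, ordered by the ratio at 10 mGy. Most low-dose points lie right of the line at 0 and the 1 Gy points lie around it, from -0.28 to 0.21; on unscaled UMIs per barcode the medians of all 3 doses lie left of 0, that of 1 Gy furthest (-0.53), and without low-UMI barcodes those of 100 mGy and 1 Gy do.

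Promoters were compared because most of the genes moved in the same direction. Nuclear genes for mitochondrial proteins are known to be controlled by factors such as NRF1, ETS family members (GABP) and YY1. RefSeq promoter windows (GRCh38.p14, 250 bases before to 50 after the start) were matched for 69 of the 78 genes, 67 of them at 10 CPM or more, and for 6923 of all genes of that level. The ETS core CCGGAAG, searched on both strands like all the others, was in 28 of the 67 windows (41.8%) and in 22.2% of the 6923. The YY1 core AAGATGGC was in 19 (28.4%) against 6.75%, and at least one of these cores in 39 against 27.3%. The NRF1 core CGCATGCG was in 3 (4.48%) against 4.72%, the SP1 core GGGCGG in 61.2% against 73.5%, and the NFY core CCAAT in 28.4% against 37.4%. The ETS and YY1 cores can share the letters AAG, but overlapped in 0 of the 67 windows and in 0.0433% of all windows. The 3 windows below, of the gene with the highest ratio at 10 mGy (MRPS21, chr1:150293611-150293910, plus strand), the gene with the lowest (MRPS9, chr2:105037819-105038118, plus strand) and the most abundant gene (MRPL20, chr1:1407244-1407543, minus strand), show how they differ. MRPL20, one of 8 genes with both an ETS and a YY1 core (1.69% of all windows had both), was picked for this after the matches were seen. Capitals mark ETS and YY1 cores.
MRPS21: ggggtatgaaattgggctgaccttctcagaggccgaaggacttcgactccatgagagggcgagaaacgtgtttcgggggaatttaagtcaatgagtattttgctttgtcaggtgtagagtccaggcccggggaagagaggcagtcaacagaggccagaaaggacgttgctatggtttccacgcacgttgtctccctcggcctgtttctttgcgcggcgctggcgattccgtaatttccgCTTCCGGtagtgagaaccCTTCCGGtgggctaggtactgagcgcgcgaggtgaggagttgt
MRPS9: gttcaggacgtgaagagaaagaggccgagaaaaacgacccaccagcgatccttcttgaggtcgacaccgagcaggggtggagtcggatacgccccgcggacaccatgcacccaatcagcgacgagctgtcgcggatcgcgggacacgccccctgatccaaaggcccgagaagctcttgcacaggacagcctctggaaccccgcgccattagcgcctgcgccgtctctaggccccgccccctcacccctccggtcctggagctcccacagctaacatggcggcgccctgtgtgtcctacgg
MRPL20: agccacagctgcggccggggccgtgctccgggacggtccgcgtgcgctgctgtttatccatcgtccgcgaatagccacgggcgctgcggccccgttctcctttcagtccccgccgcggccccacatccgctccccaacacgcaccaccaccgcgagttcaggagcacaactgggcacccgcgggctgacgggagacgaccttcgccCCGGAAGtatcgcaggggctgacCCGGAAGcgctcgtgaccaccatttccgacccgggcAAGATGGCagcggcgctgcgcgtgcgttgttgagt

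MRPS21 and MRPL20 each hold 2 ETS cores close to the start, and MRPS9 holds no exact match to the ETS, YY1 or NRF1 core in this window. Sites that differ from these letters were not counted. Across the 67 genes the differences with an ETS or a YY1 core were small beside the range of the genes. The median log2 ratio at 10 mGy was 0.39 with and 0.31 without an ETS core, and 0.38 with and 0.39 without a YY1 core. At 100 mGy it was 0.46 and 0.31 for ETS, and 0.41 and 0.33 for YY1. At 1 Gy the 4 medians lay between -0.05 and 0.00. For the NRF1 core, in only 3 windows, the low-dose medians were 0.52 and 0.71 with it and 0.37 and 0.36 without. For SP1 they were 0.36 and 0.32 with and 0.39 and 0.41 without, and for NFY 0.36 and 0.44 with and 0.39 and 0.34 without. A match is a description of the letters and was not tested as a binding site.

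By subunit, the 51 genes of the large subunit, which forms the peptide bonds, and the 26 of the small subunit, which holds and decodes the mRNA, moved alike. The summed level of the large subunit was 1.31 times the control after 10 mGy, 1.36 times after 100 mGy and 0.966 times at 1 Gy. The small subunit stood at 1.32, 1.35 and 0.983 times. Of the 49 large subunit genes of at least 10 CPM, 32 were over 1.2-fold higher at 10 mGy and 1 lower, and 32 and 2 at 100 mGy. Of the 26 small subunit genes, 18 were higher and 3 lower at 10 mGy, and 17 and 0 at 100 mGy. For comparison, 15.4% of all genes were that much higher and 53.0% lower at 10 mGy, and 14.0% and 58.9% at 100 mGy. Median log2 ratios were 0.39 and 0.34 at 10 mGy, 0.37 and 0.31 at 100 mGy, and -0.05 and -0.01 at 1 Gy, for the large and the small subunit. The difference between the subunits was thus small beside the range of the genes within each.

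By origin, 46 genes carry the unified names given to homologues of bacterial ribosomal proteins, and 31 those given to proteins counted as specific to mitochondria. The 31 include MRPS18A and MRPS18B, which are related to bacterial S18 but hold other places in the ribosome. The median log2 ratio of the 46, all of at least 10 CPM, was 0.39 at both low doses and -0.04 at 1 Gy. That of the 29 of the 31 that reached 10 CPM, without MRPL53 and MRPS30, was 0.36, 0.30 and -0.03. The 10 mitochondrion-specific genes of the small subunit had the lowest low-dose medians of the 4 combinations, 0.29 and 0.26, and 5 of the 10 were over 1.2-fold higher at each low dose. The 16 bacterial homologues of the small subunit had medians of 0.36 and 0.42, and 13 and 12 of them were higher. Of all genes, 15.4% and 14.0% were that much higher at 10 mGy and 100 mGy. The coding length of the genes also differed between these groups, with medians of 724.5 and 531 bases, and its part in the difference was not tested.

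Genes for homologues of bacterial proteins were among those furthest above the control. MRPS21, the homologue of bacterial S21 in the small subunit, had 133 CPM in the control, 253 after 10 mGy, 242 after 100 mGy and 146 at 1 Gy. Both low-dose values were well above the other libraries, with ratios of 1.90 (1.87 to 1.93) and 1.82 (1.80 to 1.85), while 1 Gy stood at 1.10. MRPS24, the homologue of S3, had 210, 360, 382 and 213 CPM in the same order. Its control and 1 Gy values nearly coincided, and its ratios were 1.71 after 10 mGy and 1.82 after 100 mGy. MRPL27, the homologue of L27, which lies near the site of peptide bond formation, had 188, 310, 340 and 185 CPM. Its ratios were 1.65, 1.81 and 0.983, so that the low doses again stood apart. Of these, MRPS21 shares its symbol with 8 pseudogenes in GENCODE 29, while MRPS24 and MRPL27 have none.

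Several large subunit genes separated the 2 low doses from each other. MRPL55 had 74.9 CPM in the control, 137 after 10 mGy, 109 after 100 mGy and 70.1 at 1 Gy. It was among the highest at 10 mGy (ratio 1.82, 1.79 to 1.86) but not at 100 mGy (1.46, 1.43 to 1.49), and on unscaled UMIs per barcode its 100 mGy value was below the control (0.933), or near it without low-UMI barcodes (1.03). MRPL23, the homologue of L23 at the mouth of the peptide exit tunnel, had 41.2, 63.4, 80.5 and 42.7 CPM. It was the reverse case, higher at 100 mGy (1.95, 1.91 to 2.0) than at 10 mGy (1.54, 1.5 to 1.58). Between the low doses themselves, 4 genes were over 1.2-fold higher at 100 mGy than at 10 mGy (1.35% of all genes), and 2 lower (12.7% of all genes). The 4 were MRPL23 at 1.27, MRPL3 at 1.26, MRPS35 at 1.22 and MRPS18C at 1.2, and the 2 were MRPL55 at 0.800 and MRPL24 at 0.828, MRPL3 and MRPL24 being named only after their values were seen. The median log2 ratio of 100 mGy to 10 mGy was 0.06 for the 76 genes and -0.07 for all genes.

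MRPS36 carries a ribosomal name, but its protein is now assigned to the 2-oxoglutarate dehydrogenase complex of the citric acid cycle, so it was counted in neither subunit. It had 55.2 CPM in the control, 96.3 after 10 mGy, 108 after 100 mGy and 48.3 at 1 Gy. Its ratios of 1.75 (1.71 to 1.78) and 1.95 (1.91 to 1.99) were among the highest of the set at both low doses, and at 1 Gy it stood at 0.876. GENCODE 29 lists 5 pseudogenes of that symbol. In all, 34 of the 78 genes have at least 1 such pseudogene there, and 0 of the 75 pseudogenes are among the deposited features, so reads shared with them were counted to the gene or lost.

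The most abundant genes were all of the large subunit except MRPS24. MRPL20, the homologue of L20, had 346 CPM in the control, 449 after 10 mGy, 446 after 100 mGy and 356 at 1 Gy. MRPL51 had 305, 462, 514 and 274 CPM, MRPL41 had 302, 426, 444 and 301, and MRPL14 had 255, 333, 332 and 247. In all of them both low doses lay above the other libraries. The ratios were 1.30 and 1.29 for MRPL20, 1.52 and 1.69 for MRPL51, 1.41 and 1.47 for MRPL41, and 1.31 and 1.30 for MRPL14, at 10 mGy and 100 mGy. With unscaled UMIs per barcode, MRPL20, MRPL41 and MRPL14 lay below the control at both low doses, at ratios between 0.824 and 0.979. Without low-UMI barcodes they lay above it at 10 mGy, at 1.19, 1.30 and 1.196, and stood at 0.908, 1.04 and 0.919 at 100 mGy.

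A smaller group of genes lay below the control at the low doses. MRPS9, the homologue of S9, had 34.8 CPM in the control, 26.7 after 10 mGy, 30.5 after 100 mGy and 33.5 at 1 Gy. Its ratio of 0.769 (0.744 to 0.794) was the lowest of the set after 10 mGy, and after 100 mGy it was 0.876. MRPS27, a small subunit protein of the pentatricopeptide repeat family, had 42.5, 35.2, 36.7 and 49.2 CPM. It combined low values at the low doses (0.828 and 0.863) with the highest ratio of the set at 1 Gy (1.16, 1.13 to 1.19). MRPS35 had 59.8, 48.0, 58.7 and 52.4 CPM, and only its 10 mGy value (0.803) was past 1.2-fold.

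In the large subunit, MRPL30 had 21.6 CPM in the control, 17.7 after 10 mGy, 18.1 after 100 mGy and 21.7 at 1 Gy, with ratios of 0.817 and 0.837 at the low doses. MRPL49 had 29.1, 25.5, 24.1 and 28.1 CPM, and MRPL9, the homologue of L9, had 111, 96.0, 92.4 and 99.0. Both were past 1.2-fold only at 100 mGy, at 0.827 and 0.829. MRPL19 had 106, 90.4, 103 and 103 CPM and was lowest at 10 mGy (0.852). These falls depended on the scaling: with median ratio scaling MRPL30 and MRPS27 stood at 1.01 and 1.02 at 10 mGy, and MRPL9 and MRPL49 at 1.08 at 100 mGy.

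At 1 Gy the CPM values stayed close to the control. On unscaled UMIs per barcode the median log2 ratio of the family was -0.53, beside -0.47 for all genes of at least 10 CPM. All 76 genes lay below the control so counted, as does any gene with a CPM ratio under 1.403. On CPM, MRPL13 was the 1 gene past 1.2-fold, with 70.8 CPM in the control, 93.5 after 10 mGy, 102 after 100 mGy and 58.3 at 1 Gy. Its 1 Gy ratio was 0.823 (0.804 to 0.843), while its low-dose ratios of 1.32 and 1.44 lay above 1 (0.916 and 0.924 on unscaled UMIs per barcode, and 1.21 and 1.02 when low-UMI barcodes were also left out). The next lowest at 1 Gy were MRPL58 (0.852), MRPS14 (0.860), MRPS15 (0.860) and MRPS26 (0.866). Among these, MRPS15 had 154, 193, 191 and 132 CPM, and MRPS26 had 176, 243, 216 and 153. MRPS14 had 55.9, 73.2, 66.6 and 48.1 CPM. All 3 were highest at the low doses, at ratios between 1.19 and 1.38, and lowest at 1 Gy, but on unscaled UMIs per barcode their low-dose values were below the control. Without low-UMI barcodes this held at 100 mGy alone, at ratios between 0.837 and 0.873, and not at 10 mGy, at 1.15 to 1.27. After MRPS27, the highest ratios at 1 Gy were those of MRPL45 (1.15), MRPL33 (1.13), MRPL48 (1.11) and MRPS2 (1.11), but unscaled, MRPS27, MRPL45 and MRPS2 stood at 0.826, 0.817 and 0.792. MRPL45, which ties the ribosome to the inner membrane, had 25.9, 26.1, 25.8 and 29.7 CPM, and MRPS2 had 49.3, 52.5, 53.9 and 54.8. MRPL33 had 191, 306, 300 and 215 CPM, and MRPL48 had 26.5, 34.8, 34.3 and 29.5. MRPL45 and MRPS2 thus differed little from the control in CPM at the low doses (1.24 to 1.43 under median ratio scaling and 0.639 to 0.739 unscaled), whereas MRPL33 stood at 1.60 and 1.58 and MRPL48 at 1.31 and 1.30 (on unscaled UMIs MRPL48 was below the control, and without low-UMI barcodes only at 100 mGy, at 0.915).

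Members with a second role, or with close relatives, did not all behave alike. MRPL12, a stalk protein that also binds the mitochondrial RNA polymerase, had 238 CPM in the control, 247 after 10 mGy, 262 after 100 mGy and 227 at 1 Gy. Its ratios of 1.04, 1.10 and 0.953 did not pass 1.2-fold. MRPL58, a peptidyl-tRNA hydrolase that rescues stalled ribosomes, had 73.2, 67.0, 74.0 and 62.4 CPM, and its ratios were 0.915 and 1.01 at the low doses. Both stayed within the fold limit at every dose on CPM, but not under other scalings. Median ratio scaling put MRPL12 at 1.28 and 1.43 at the low doses and MRPL58 at 1.32 at 100 mGy, and unscaled UMIs per barcode put both below the control by more than the limit at every dose, between 0.679 and 0.719 for MRPL12 and between 0.607 and 0.646 for MRPL58.

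The MRPS18 genes encode 3 proteins related to the single bacterial S18, of which MRPS18A sits in the large subunit and the others in the small subunit. By its unified name MRPS18C counts as the bacterial homologue, and the other two as mitochondrion-specific. MRPS18C had 113 CPM in the control, 167 after 10 mGy, 201 after 100 mGy and 113 at 1 Gy, with ratios of 1.47 (1.45 to 1.5) and 1.77 (1.75 to 1.80). MRPS18A had 28.8, 39.2, 35.2 and 30.02 CPM, and its ratios were 1.36 (1.32 to 1.40) and 1.22 (1.18 to 1.26). MRPS18B had 52.1, 61.3, 61.8 and 57.2 CPM, and its ratios were 1.18 (1.15 to 1.2) and 1.19 (1.16 to 1.21). MRPS18C was the highest of the 3 at both low doses. Its counting interval did not overlap those of its relatives, which at this depth says nothing of the spread between cultures. On CPM, MRPS18A was past 1.2-fold at both low doses and MRPS18B at neither, a contrast that rests on the scaling. MRPS18B passed at both with each barcode scaled to 10000 UMIs (1.28 and 1.22), with totals without cytosolic ribosomal protein and mitochondrially encoded genes (1.25 and 1.29) and under median ratio scaling (1.45 and 1.55). On unscaled UMIs per barcode MRPS18A was below the control (0.942 and 0.783), and without low-UMI barcodes only at 100 mGy (1.248 and 0.865).

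Across the family the low-dose ratio went with the length of the coding sequence, as it did across all genes. In GENCODE 29, matched by gene identifier, the longest coding sequence of the 76 genes ran from 207 to 1449 bases, with a median of 598.5, against 1377.5 over all genes of that level. Across the 76 genes Spearman's rho between coding length and log2 ratio was -0.53 after 10 mGy, -0.55 after 100 mGy and 0.11 at 1 Gy. Across 8246 other protein-coding genes it was -0.62, -0.63 and 0.04. Other measures of length set the family apart from those genes. With the length of the whole transcript, rho at the low doses was -0.34 and -0.33 in the family, and -0.64 and -0.65 in the others. With the merged exons or the genomic span of the gene it lay between -0.24 and -0.13 in the family, and between -0.57 and -0.46 in the others. All points of such a correlation come from the same libraries, and genes are not replicates. Under 450 bases, all 18 genes of the family passed 1.2-fold upward at 10 mGy, and so did 60.2% of the other genes of that length. From 450 to 600 bases it was 14 of 20 against 45.6%, from 600 to 900 bases 16 of 23 against 29.97%, and from 900 to 1500 bases 3 of 15 against 10.4%.

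Compared with other genes of like coding length, the family lay higher at both low doses, and lower at 1 Gy, in every class of coding length it fills. At 10 mGy the median log2 ratios of the family and of the other genes were 0.54 and 0.38 under 450 bases, 0.38 and 0.20 from 450 to 600, 0.36 and 0.03 from 600 to 900, and 0.06 and -0.22 from 900 to 1500. At 100 mGy they were 0.67 and 0.40, 0.42 and 0.19, 0.31 and -0.01, and 0.13 and -0.30. At 1 Gy the medians of the family lay between -0.06 and -0.03, and those of the other genes between -0.01 and 0.03. Genes of 1500 bases or more, of which the family has none, had a median of -0.54 at 10 mGy. Sorted by the length of the whole transcript instead, the classes below 1000 bases did not separate at 100 mGy (0.48 and 0.50). The 7 genes of the family with transcripts of at least 3000 bases had a median of 0.36 at 10 mGy, where other genes of that class had -0.52. No test of these differences was made.

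**Figure D3:**
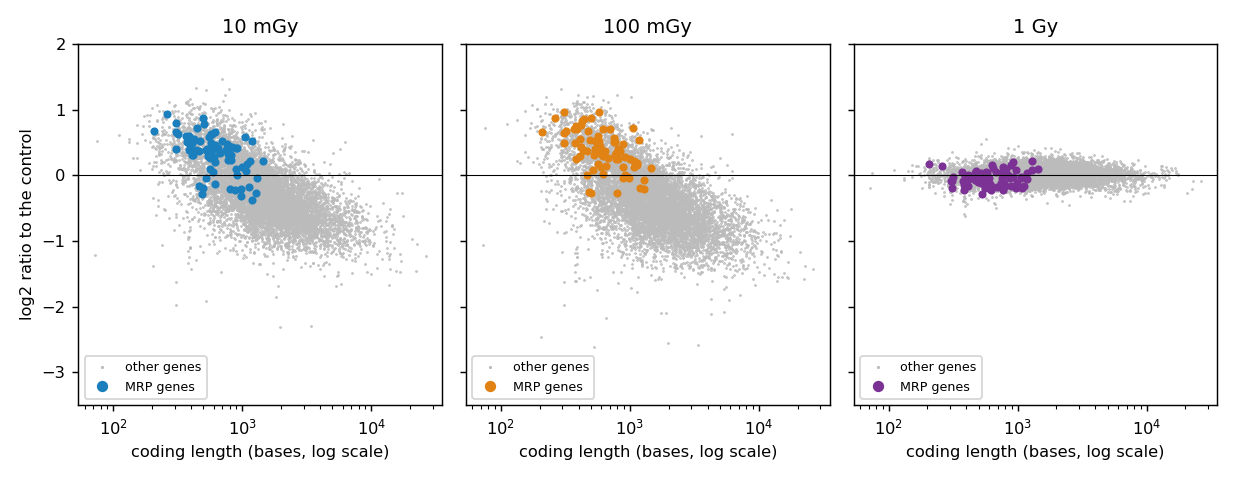
Log2 ratio to the control (on CPM) against coding length in bases (log axis) at 10 mGy, 100 mGy and 1 Gy, with the 76 genes in colour over the other protein-coding genes in grey. The family sits at the short end, in the upper part of a cloud that falls with length at both low doses (rho of -0.53 and -0.55 within the family) and is flat at 1 Gy (0.11); scaling shifts each cloud up or down as a whole and on unscaled UMIs the family's medians lie below 0 at all 3 doses (without low-UMI barcodes at 100 mGy and 1 Gy).

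The rest of the machinery of mitochondrial translation did not move as a block. As background, 15.4% of all genes were over 1.2-fold higher and 53.0% lower at 10 mGy, and 14.0% and 58.9% at 100 mGy. Of 5 proteins of the mitochondrial ribosome that carry other symbols, GADD45GIP1 and CHCHD1 were over 1.2-fold higher at 10 mGy (1.24 and 1.21), and DAP3 and PTCD3 lower (0.747 and 0.673). GADD45GIP1 had 299 CPM in the control, 372 after 10 mGy, 433 after 100 mGy and 275 at 1 Gy. DAP3, a GTP-binding protein of the small subunit, had 72.6, 54.3, 55.4 and 77.0 CPM, and PTCD3, a pentatricopeptide repeat protein that helps to bring in the mRNA, had 66.9, 45.1, 43.2 and 71.1. Low doses were thus higher for the former and lower for both of the latter. AURKAIP1, the most abundant of the 5 in the control with 375 CPM, had ratios of 1.14 and 1.15.

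Of 17 translation factors, 16 reached 10 CPM, and 5 were higher and 7 lower at each low dose. Of all genes, 15.4% and 14.0% were that much higher at 10 mGy and 100 mGy, and 53.0% and 58.9% lower. The medians of the factors were -0.05, so that they lie 0.25 and 0.34 above the median of all genes, with 9 of the 16 above it at each low dose. SLIRP, an RNA-binding protein, had 195 CPM in the control, 283 after 10 mGy, 373 after 100 mGy and 187 at 1 Gy, ratios of 1.45 and 1.91. Its partner LRPPRC, with which it stabilizes mitochondrial mRNAs, had 163, 99.4, 86.2 and 170 CPM, ratios of 0.610 and 0.529. On CPM the partners thus moved in opposite directions. Among the elongation factors, TUFM stood at 1.32 and 1.25 and TSFM at 1.30 and 1.27, while GFM1 stood at 0.564 and 0.551. Among the initiation factors, MTIF3 stood at 1.63 and 1.36 and MTIF2 at 0.663 and 0.702. The median coding length of the list was 1188 bases. Genes outside the family with 900 to 1500 coding bases had medians of -0.22 and -0.30 at the low doses. The part of length in the contrasts between factors was not tested.

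Of 26 assembly factors, 22 reached 10 CPM. At 10 mGy 4 were higher and 5 lower (median -0.06), against 15.4% and 53.0% of all genes. At 100 mGy it was 3 and 7 (median -0.07), against 14.0% and 58.9%. The medians lay 0.24 and 0.32 above that of all genes, and 18 of the 22 genes lay above it at each low dose. The median coding length of this list was 1152 bases, and genes outside the family of 900 to 1500 bases had medians of -0.22 and -0.30. YBEY, an RNA nuclease, was highest at 1.48 and 1.66, and MALSU1, which guards the large subunit during assembly, stood at 1.30 and 1.32. The GTPase GTPBP10 stood at 0.535 and 0.611. Of 20 mitochondrial aminoacyl-tRNA synthetases and amidotransferase subunits, which charge the tRNAs, 15 reached 10 CPM. At 10 mGy 0 were higher and 8 lower (median -0.29), and at 100 mGy 0 and 9 (median -0.37). Of all genes 53.0% and 58.9% were that much lower, so these counts are near the background, and the medians lie above those of all genes by only 0.013 and 0.0095. Their median coding length was 1671 bases, and genes of 1500 bases or more had medians of -0.54 and -0.64. AARS2, the lowest of the 15 at both low doses (ratios of 0.597 and 0.519), had 15.5, 9.24, 8.04 and 16.9 CPM.

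On CPM, the mRNAs that the mitochondrial ribosome translates lay on the other side of the control from the mRNAs of its proteins. On unscaled UMIs per barcode the family's medians lay below the control as well (-0.14 and -0.28), though not at 10 mGy without low-UMI barcodes. The 13 mitochondrially encoded mRNAs took 5.91% of all UMIs in the control, 4.55% after 10 mGy, 4.40% after 100 mGy and 5.78% at 1 Gy. At both low doses 0 of the 13 were over 1.2-fold higher and 10 were lower, with medians of -0.55 and -0.70. Among all genes 15.4% were that much higher and 53.0% lower at 10 mGy, and 14.0% and 58.9% at 100 mGy. MT-ND1 had 2118 CPM in the control, 1055 after 10 mGy, 881 after 100 mGy and 2065 at 1 Gy, ratios of 0.498 and 0.416. MT-CO2 was among the 3 that did not pass the fold limit, at 0.910 and 0.929. These mRNAs lay below the median of all genes by 0.25 and 0.32. A single factor per library cannot change this difference, and it was not computed with each barcode scaled on its own.

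Other short nuclear genes moved as the family did. The 37 NDUF genes, nuclear subunits of respiratory complex I, had medians of 0.64, 0.73 and -0.02 at 10 mGy, 100 mGy and 1 Gy. At 10 mGy 31 were over 1.2-fold higher and 1 lower, against 15.4% and 53.0% of all genes. At 100 mGy it was 30 and 1, against 14.0% and 58.9%. NDUFB3, the highest of the 37 at 100 mGy (ratio 2.49), had 74.3, 155, 185 and 74.5 CPM. The 83 cytosolic ribosomal protein genes of at least 10 CPM had medians of 0.55, 0.65 and 0.02. Against the same shares of all genes, 76 were higher and 1 lower at 10 mGy, and 77 and 1 at 100 mGy. Both lists thus had larger medians at the low doses than the mitochondrial ribosomal protein genes, and shorter coding sequences, with medians of 489 and 471 bases. The summed level of the cytosolic ribosomal protein genes was 1.43 times the control after 10 mGy and 1.56 times after 100 mGy, against 1.31 and 1.36 for the mitochondrial ones.

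**Figure D4:**
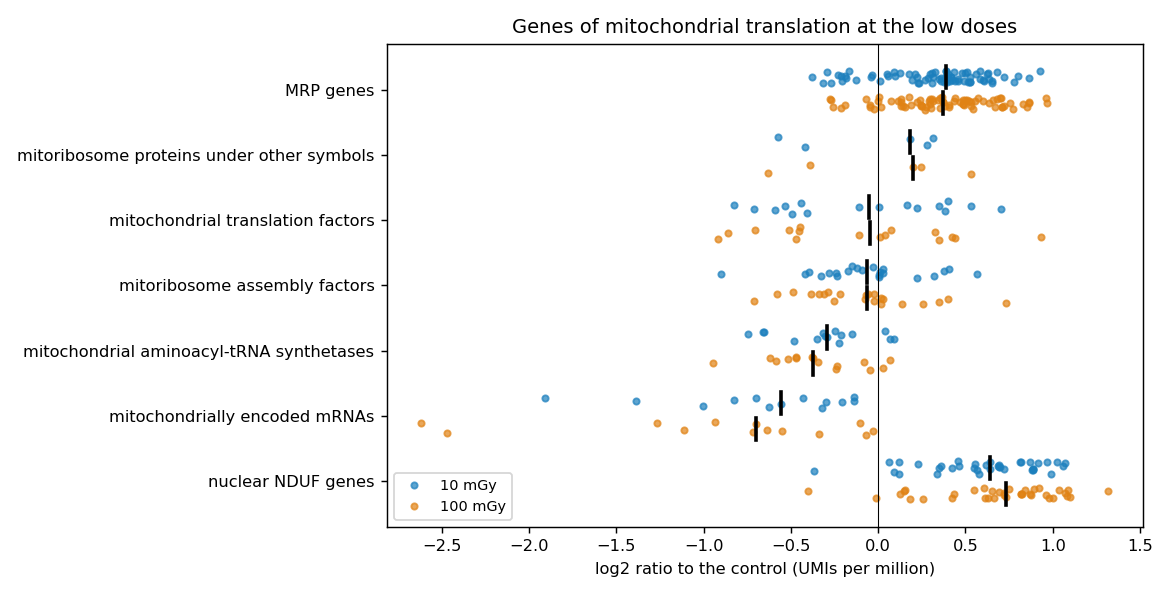
Log2 ratio to the control (on CPM) at 10 mGy and 100 mGy, 1 point per gene of at least 10 CPM, by list; black bars are medians. The mitochondrial ribosomal protein genes (medians 0.39 and 0.37) and NDUF genes (0.64 and 0.73) lie mostly right of 0, the mitochondrially encoded mRNAs wholly left of it, and the translation and assembly factors on both sides; on unscaled UMIs per barcode the points of each dose shift left together and the family's medians are -0.14 and -0.28 (0.25 and -0.14 without low-UMI barcodes).

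In single barcodes the difference was a shift of the whole distribution. The median barcode held 144 UMIs of the family in the control, 131 after 10 mGy, 122 after 100 mGy and 101 at 1 Gy, out of fewer UMIs in all at each dose than in the control. As a share, the median barcode had 0.740% in the control (quartiles 0.677% and 0.808%), 0.984% after 10 mGy (0.892% and 1.10%), 1.00% after 100 mGy (0.902% and 1.12%) and 0.726% after 1 Gy (0.657% and 0.807%). The lower quartile of each low-dose library thus lay above the upper quartile of the control and of 1 Gy. Low-UMI barcodes had larger shares than the others in every library, 0.773% against 0.739% in the control, 1.07% against 0.966% after 10 mGy, 1.07% against 1.01% after 100 mGy and 0.834% against 0.715% after 1 Gy. Without them the low doses remained apart from the other libraries. Thinned to 1500 UMIs, which left out 932 barcodes of the control, 2048 after 10 mGy, 4576 after 100 mGy and 2859 at 1 Gy, a barcode held on average 11.2, 15.0, 15.0 and 10.9 UMIs of the family. The standard deviations were 3.57, 4.07, 4.14 and 3.47 UMIs, and counting alone gives 3.35, 3.88, 3.88 and 3.30. The spread was thus slightly wider than counting alone gives in every library, and the source of the excess was not tested. With so few UMIs of the family drawn per barcode, counting made up most of the spread.

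Dispersion, the standard deviation over the mean, is one of the measures by which the study relates dose to expression, and it was taken here across barcodes scaled to 10000 UMIs. Its median over the 76 genes was 152% in the control, 168% after 10 mGy, 187% after 100 mGy and 191% at 1 Gy. It was lower at 100 mGy than at 10 mGy in 1 gene, MRPL3, at 159% against 165%, and in 1.41% of all genes. The median UMI count per barcode differs between the libraries, and its part in the dispersion was not tested.

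The order of the genes was alike in 2 comparisons that share no library. Across the 76 genes, the log2 ratio of 10 mGy to the control and that of 100 mGy to 1 Gy had a Spearman's rho of 0.81 and a Pearson's r of 0.82. Across 8431 other genes they were 0.90 and 0.91, so the likeness was no stronger in the family than elsewhere.

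**Figure D5:**
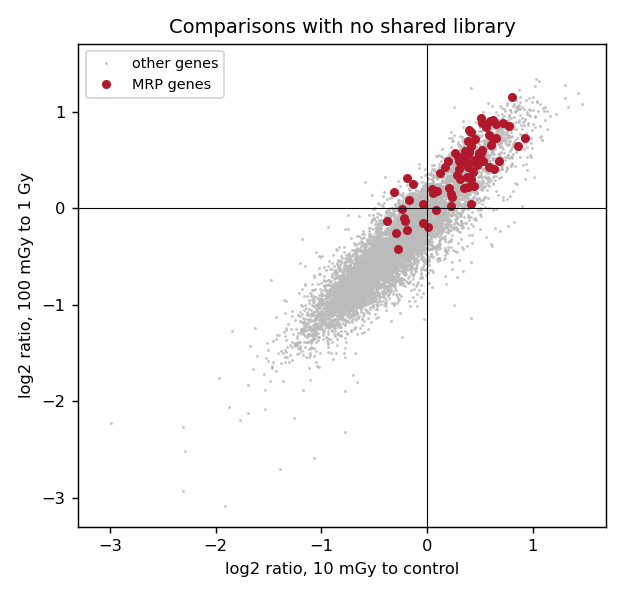
Log2 ratio of 100 mGy to 1 Gy against log2 ratio of 10 mGy to the control, with the 76 genes in red over the other genes of at least 10 CPM in grey. The family lies mostly in the upper right part of a common band (rho 0.81 within the family, 0.90 in the other genes). Scaling moves the whole cloud, and on unscaled UMIs per barcode the median of the family at 10 mGy is -0.14 (0.25 without low-UMI barcodes).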

How the data were processed

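BEAS-2B cells were measured in 4 Chromium 3′ libraries, 1 per dose, grouped by the sample labels. The authors deposited raw UMI counts per gene and barcode, and the file header names Cell Ranger 7.0.1. The submitters' processing notes also name STAR and GRCh37, while the annotation is not given in the sources used here. Counts were summed over every deposited barcode and divided by the library total. Doublets were neither called nor removed. Genes needed a mean of 10 CPM, and over 1.2-fold was taken as higher or lower. The genes and lists were chosen with earlier results of these data known. Named were the 5 highest and 5 lowest ratios at each dose, the 5 most abundant genes, the MRPS18 genes, MRPL12, MRPL58, MRPS30, MRPS36 and the genes under 10 CPM. Thinning drew 1500 UMIs per barcode. Lengths came from GENCODE 29 (GRCh38), matched by identifier for 34616 of 36601 genes, and promoter windows from RefSeq. Ratios and their intervals were tested on simulated counts with counting error alone, which hold no difference between barcodes or cultures. Depth, 211752280 to 285806026 UMIs, makes counting intervals narrow, and with 1 library per dose the spread between cultures is unknown. Alternatives changed the scaling, the barcodes, the floor and the fold. Python 3.11.15, numpy 2.4.6, scipy 1.17.1 and pandas 2.3.3 were used.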

Additional observations from a re-analysis of the deposited data

How the results depend on the processing

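No paired analysis was possible because each dose has 1 library. Scaling had the largest effect. In the order 10 mGy, 100 mGy and 1 Gy, the median log2 ratio of the family (0.39, 0.37 and -0.04) became -0.14, -0.28 and -0.53 with unscaled UMIs per barcode, with 3 and 2 genes over 1.2-fold higher at the low doses (1.62% and 1.02% of all genes) and 12 highest at both. The same without low-UMI barcodes, an alternative added after seeing the data, gave 0.25, -0.14 and -0.43, with 35 and 7 genes higher (10.5% and 2.37% of all genes) and 26 highest at both low doses. Median ratio scaling gave 0.69, 0.75 and -0.071. Scaling each barcode to 10000 UMIs gave 0.41, 0.39 and -0.0081, and totals without cytosolic ribosomal protein and mitochondrially encoded genes gave 0.47 and 0.49 at the low doses. Without low-UMI barcodes the medians were 0.37, 0.37 and -0.045, without barcodes of very high UMI count 0.39 and 0.36 at the low doses, and thinned to 1500 UMIs 0.37 at 100 mGy and -0.053 at 1 Gy. A floor of 100 CPM left fewer genes, with medians of 0.42 at 100 mGy and -0.047 at 1 Gy, 29 and 30 genes higher (30.7% and 30.9% of all genes) and 33 highest at both low doses (40.1%). At 1.5-fold, 14 and 18 genes were higher, against 4.94% and 5.04% of all genes. The distance of the family from the median of all genes stayed between 0.67 and 0.73 at 10 mGy and between 0.74 and 0.78 at 100 mGy in all of these except the floor of 100 CPM (0.45 and 0.50), where the cause was not tested. At 1 Gy the distance ran from -0.069 (thinned to 1500 UMIs) to -0.013 (barcodes scaled to 10000 UMIs). Unscaled UMIs of all barcodes, the reduced totals and median ratio scaling each multiply a whole library by 1 factor. In these the distance cannot change (0.69 and 0.75), so they are no check of it.

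With unscaled UMIs per barcode, named genes that were over 1.2-fold higher at a low dose fell below the control. At 10 mGy the ratios were 0.900 for MRPL20, 0.870 for MRPS15, 0.908 for MRPS14, 0.942 for MRPS18A, 0.908 for MRPL14, 0.916 for MRPL13, 0.979 for MRPL41, 0.911 for MRPL48 and 0.954 for MRPS26. At 100 mGy they were 0.824 for MRPL20, 0.792 for MRPS15, 0.933 for MRPL55, 0.783 for MRPS18A, 0.834 for MRPL14, 0.924 for MRPL13, 0.941 for MRPL41, 0.829 for MRPL48 and 0.785 for MRPS26. With low-UMI barcodes also left out, these 10 mGy values lay above the control, while 6 of the 100 mGy values stayed below it: MRPL20 at 0.908, MRPS15 at 0.873, MRPS18A at 0.865, MRPL14 at 0.919, MRPL48 at 0.915 and MRPS26 at 0.866. With median ratio scaling, MRPL30 (1.01) and MRPS27 (1.02) at 10 mGy and MRPL9 (1.08) and MRPL49 (1.08) at 100 mGy no longer lay below the control. Each alternative here differs by its construction in the library totals. Counting intervals are narrow at this depth and do not cover differences between cultures or between scalings.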

Other observations

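Features whose symbol extends that of a family member were counted apart. MRPL20-AS1 had 4.21 CPM in the control, 3.61 after 10 mGy, 3.06 after 100 mGy and 4.40 after 1 Gy. MRPS30-DT had 5, 15, 7 and 11 UMIs in the whole libraries, and MRPL23-AS1 had 1 UMI at 1 Gy and 0 in each of the others.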
